A study of Bos taurus with 6 samples.

Results

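The autosomal peaks called in chromatin of bovine blastocysts recovered with an antibody to MAT2A (MAT2A-ChIP) were compared with those recovered with an isotype control antibody (IgG control). The members were all autosomal peaks in the lists of the 2 MAT2A-ChIP and the 2 IgG control libraries, 6460 peaks of 11572 in the 6 lists of the series, which also holds 2 Input libraries. All embryos were produced in vitro from oocytes of Japanese Black cattle or of the F1 of Japanese Black × Holstein and were cross-linked at day 8, 192 h after insemination, with 1% formaldehyde for 10 min. Replicate 1 was a pool of 669 blastocysts and replicate 2 a pool of 677. Each pool gave sheared chromatin for all 3 of its libraries: one aliquot of 320 µl received 5 µg of a mouse monoclonal antibody to MAT2A, another received 5 µg of a mouse IgG2B isotype control, each for 16 h, and 20 µl was kept as Input. Libraries with the same number therefore share their embryos, and differences among embryos, or between the inner cell mass and the trophectoderm, are not visible in a pool.

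MAT2A is the catalytic subunit of the methionine adenosyltransferase found in most tissues, which makes S-adenosylmethionine, the methyl donor for histone and DNA methyltransferases, from methionine and ATP. The enzyme has been found in the nucleus together with chromatin regulators, where it could supply the methyl donor locally. An isotype control antibody measures what chromatin is recovered without the specific target, including regions where reads pile up in any library because repeated sequence is collapsed in the assembly. A peak list with the MAT2A antibody is therefore read against the list from the isotype control.

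The 4 lists were alike in size and in the strength of their peaks. MAT2A-ChIP gave 1759 autosomal peaks in replicate 1 and 1506 in replicate 2, and the IgG control gave 1645 and 1550. MAT2A-ChIP thus had 114 more peaks than its control in replicate 1 and 44 fewer in replicate 2, a mean difference of 35 ± 112 (SD, n = 2 pairs; exact two-sided sign-flip permutation test, p = 1). The direction turned between the pools, so the difference is smaller than the spread between replicates. With 2 pairs this test cannot give a p below 0.5, and with the libraries taken as 2 unpaired groups an exact permutation test cannot go below 0.333.

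Peaks of MAT2A-ChIP covered 572 kb of the autosomes in replicate 1 and 499.8 kb in replicate 2, against 555 and 551 kb in the IgG control. The median peak width was 270 and 281 bp with the MAT2A antibody and 282 and 294 bp with the control. MAT2A-ChIP peaks were the narrower in both pools, by 12.5 ± 0.707 bp (SD, n = 2 pairs; exact sign-flip permutation test, p = 0.5), and the 4 values do not overlap between antibodies. This is a difference of a few bases in peaks that spanned from about 0.1 to 4 kb, and the design cannot place it below the smallest p it allows. Among peaks with a score of 70 or more the difference was −20.75 ± 13.1 bp (SD, n = 2 pairs; exact sign-flip permutation test, p = 0.5), again in 1 direction. Among peaks with a score of 100 or more the difference was −14 ± 25.5 bp (SD, n = 2 pairs; exact sign-flip permutation test, p = 1), and its direction turned between the pools.

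The score that the peak caller gave each peak is −10 log10 of its p-value, and the lists start at a score of 50. The median score was 63.0 and 66.1 in the MAT2A-ChIP libraries and 63.5 and 67.5 in the IgG control libraries. Peaks with a score under 70 made up 56.8% and 53.1% of the MAT2A-ChIP lists and 57.8% and 52.0% of the control lists, a paired difference of 0.0819 ± 1.47 percentage points (SD, n = 2 pairs; exact sign-flip permutation test, p = 1). The strongest peak had a score of 2629 and 2558 with the MAT2A antibody and 2447 and 2369 with the control. Scores rise with sequencing depth, and the lists hold no read counts, while the read totals of the libraries were not used here, so raw scores set side by side or cut at a fixed value carry the depth of each library. Whether a region stood higher with one antibody was therefore read from ranks or percentiles within a list. In the Input lists, which had 1601 and 1453 autosomal peaks, the median score was 98.4 and 102.7.

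About 4 in 10 peaks of each antibody overlapped, by at least 1 bp, a peak of the other antibody from the same pool. In replicate 1, 717 of 1759 MAT2A-ChIP peaks did so, 40.8% (95% Wilson interval 38.5 to 43.1%), and 718 of 1645 IgG control peaks, 43.6% (41.3 to 46.1%). In replicate 2 the shares were 684 of 1506 MAT2A-ChIP peaks, 45.4% (42.9 to 47.9%), and 677 of 1550 control peaks, 43.7% (41.2 to 46.2%). The same antibody in the other pool was met about as often: 39.2% of MAT2A-ChIP replicate 1 peaks overlapped a MAT2A-ChIP replicate 2 peak, and 42.2% of IgG control replicate 1 peaks overlapped an IgG control replicate 2 peak. A MAT2A-ChIP peak therefore had a partner in the control library of its own pool about as often as in the MAT2A-ChIP library of the other pool. The intervals cover counting error only.

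Whether a peak was shared followed its score. Of the MAT2A-ChIP replicate 1 peaks, 10.5% with a score of 50 to 70 had a partner in the IgG control of the same pool, 55.9% of those from 70 to 100, 87.6% of those from 100 to 200, and all 161 and 54 peaks in the classes from 200 to 500 and from 500 up. In MAT2A-ChIP replicate 2 the shares were 13.6%, 63.0%, 84.6%, 97.1% (135 of 139) and 100% (50 of 50). The IgG control lists, read against MAT2A-ChIP, gave 12.8%, 69.5% and 90.5% in the 3 lower classes of replicate 1 and 10.0%, 59.1% and 83.4% in replicate 2, with every peak from 200 up shared in both. The 100 strongest peaks of each of the 4 lists all had a partner with the other antibody, as did the 200 strongest of 3 lists and 195 of the 200 strongest of MAT2A-ChIP replicate 2. Shared MAT2A-ChIP peaks had a median score of 132.2 and 130.4, against 55.0 and 54.9 for those without a control partner.

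**Figure D1:**
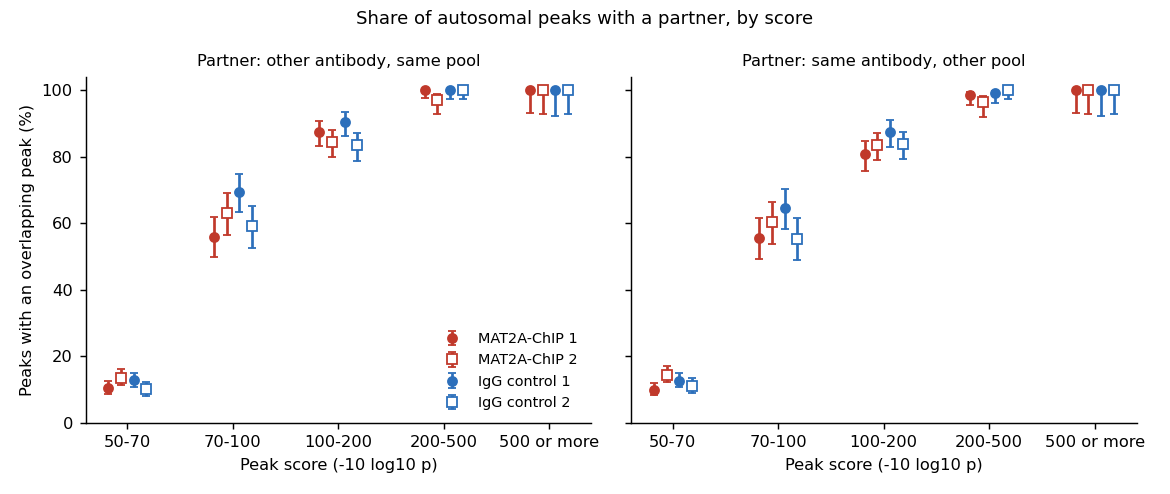
Share of autosomal peaks, in percent, that overlapped a peak of the other antibody from the same pool (left) or of the same antibody from the other pool (right), by class of peak score, for the 4 libraries with 95% Wilson intervals as bars. In every library the share rises from 10.0 to 14.5% in the lowest class to 96.4% or more from a score of 200, with either kind of partner.

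The strongest peaks without a partner from the control of the same pool were few. In MAT2A-ChIP replicate 2 they were chr6:89211028-89211175, with a score of 271.4, chr27:23703379-23703502 with 252.6, and chr27:26334349-26334505 with 234.2. The peak on chromosome 6 overlapped a peak in both libraries of the other pool, IgG control included, whereas neither peak on chromosome 27 was called in any other library of the comparison. In MAT2A-ChIP replicate 1 the strongest such peak was chr18:33452445-33452583, with a score of 162.4, and the IgG control of the other pool had a peak there. The control lists held peaks of the same kind: chr14:211354-211500 with a score of 159.7 in replicate 1 and chr1:45735427-45735582 with 199.4 in replicate 2. These peaks were named for their scores after the values were seen.

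Where both antibodies gave a peak, they ranked the peaks alike. Over the 697 peak pairs of replicate 1, Spearman's rank correlation between MAT2A-ChIP and IgG control was 0.779 for score and 0.853 for width, and over the 662 pairs of replicate 2 it was 0.766 and 0.854. The peak centres lay a median of 19 bp apart in replicate 1 and 19.5 bp in replicate 2. Between the pools, the 663 pairs of MAT2A-ChIP gave 0.747 for score and 0.836 for width, and the 662 pairs of the IgG control gave 0.768 and 0.839. The MAT2A-ChIP peak was the wider in 45.5% of the pairs of replicate 1 and in 45.0% of those of replicate 2. These correlations are across peaks, which share the genome, the pool and the caller and are not replicates, so they are given as a description.

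Joining overlapping peaks of the 4 lists gave 4105 autosomal regions. Most of them, 3140 (76.5%), were called in 1 library only: 900 in MAT2A-ChIP replicate 1, 703 in MAT2A-ChIP replicate 2, 818 in IgG control replicate 1 and 719 in IgG control replicate 2. A further 258 regions (6.29%) were called in 2 libraries, 183 (4.46%) in 3 and 524 (12.8%) in all 4. Among the regions called in exactly 2 libraries, 41 (0.999% of all regions) had both MAT2A-ChIP libraries and 33 (0.804%) both IgG control libraries. The pairs that mix the antibodies held 50 regions (both libraries of replicate 1), 49 (both of replicate 2), 53 (MAT2A-ChIP replicate 1 with IgG control replicate 2) and 32 (MAT2A-ChIP replicate 2 with IgG control replicate 1). The count for the MAT2A pair thus lay within the range of the mixed pairs. Both MAT2A-ChIP libraries were called at 652 regions, and 611 of these (93.7%) also held an IgG control peak. Both IgG control libraries were called at 653, and 620 of these (94.9%) also held a MAT2A-ChIP peak.

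The more libraries had called a region, the more often Input had too. An Input peak overlapped 286 (9.11%) of the regions called in 1 library, 197 (76.4%) of those in 2, 166 (90.7%) of those in 3 and 522 (99.6%) of those in all 4. The median of the highest score in a region rose over the same classes from 54.3 to 83.0, 109.5 and 203.6. Among the regions of 2 libraries, Input overlapped 29 of the 41 with MAT2A-ChIP alone and 23 of the 33 with the IgG control alone.

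**Figure D2:**
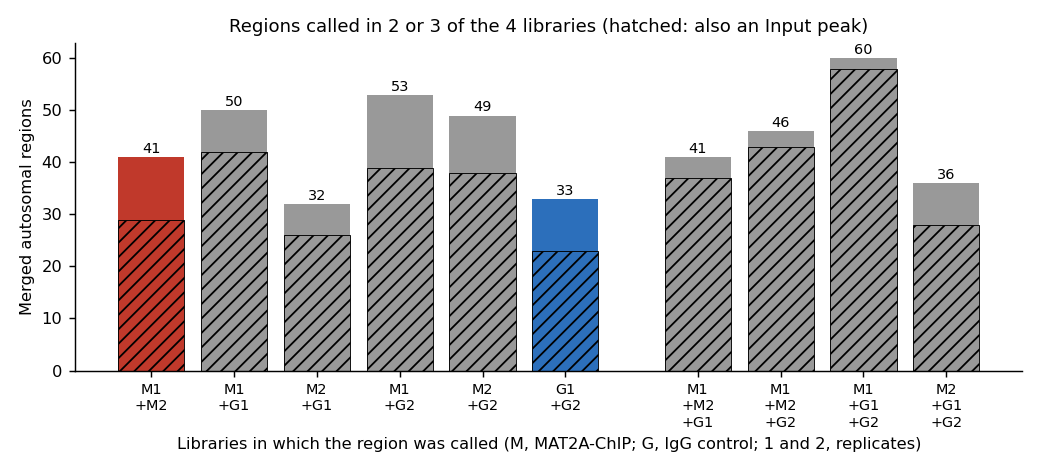
Number of merged autosomal regions called in exactly 2 (left) or 3 (right) of the 4 libraries, by which libraries called them, with the hatched part of a bar counting regions that also overlapped an Input peak. The 41 regions called with the MAT2A antibody alone (red) lie between the 32 and 53 of the pairs that mix antibodies (grey), and 33 were called with the IgG control alone (blue).

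At the 524 regions called in all 4 libraries, the libraries could be compared over the same places. The rank correlation for score was 0.803 between MAT2A-ChIP and IgG control of replicate 1 and 0.792 in replicate 2, against 0.765 between the MAT2A-ChIP libraries of the pools and 0.806 between their IgG controls. The rank correlation for width was 0.899 and 0.895 within the pools, against 0.881 for MAT2A-ChIP and 0.895 for the IgG control across them. Averaged over the pairs of libraries, the rank correlation for score was 0.797 for different antibodies in 1 pool, 0.780 for different antibodies in different pools and 0.786 for the same antibody in different pools. A change of antibody and a change of pool thus went with about the same spread in rank. The median difference in within-list percentile, the percent of a list's peaks with a lower score, was 5.01 points, 5.21 points and 5.21 points in these 3 kinds of pair.

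The 5 regions with the highest mean percentile stood near the top of every list, each at a percentile of at least 99.6. The first, chr1:61603232-61604769, had a score of 2629 and 2558 with MAT2A-ChIP and 2447 and 2355 with the IgG control, and its peaks were 1529, 1527, 1520 and 1530 bp wide in the same order. The next, chr24:19270381-19271206, scored 2530 and 2523 with MAT2A-ChIP and 2216 and 2369 with the control. At chr17:269492-270579 the scores were 1941 and 1934 against 1694 and 1942. At chr9:65872549-65874116 they were 1473 and 1647 against 1352 and 1704, and at chr28:1893608-1894967 they were 1254 and 1743 against 1383 and 1466. Each of the 5 regions was also called in both Input libraries.

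The difference between the antibodies at a region did not carry over from one pool to the other. Across the 524 regions, the MAT2A-ChIP minus IgG control difference in score percentile of replicate 1 had a rank correlation of 0.0143 with that of replicate 2, and the difference in log2 width a rank correlation of −0.0293. On log2 score, a scale chosen after the data were seen, the rank correlation was 0.0400. The percentile was higher with MAT2A-ChIP in both pools at 138 regions (26.3%), lower in both at 124 (23.7%) and of mixed direction at 262. At least 10 percentile points higher in both pools were 15 regions (2.86%), and at least 10 points lower in both were 20 (3.82%).

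**Figure D3:**
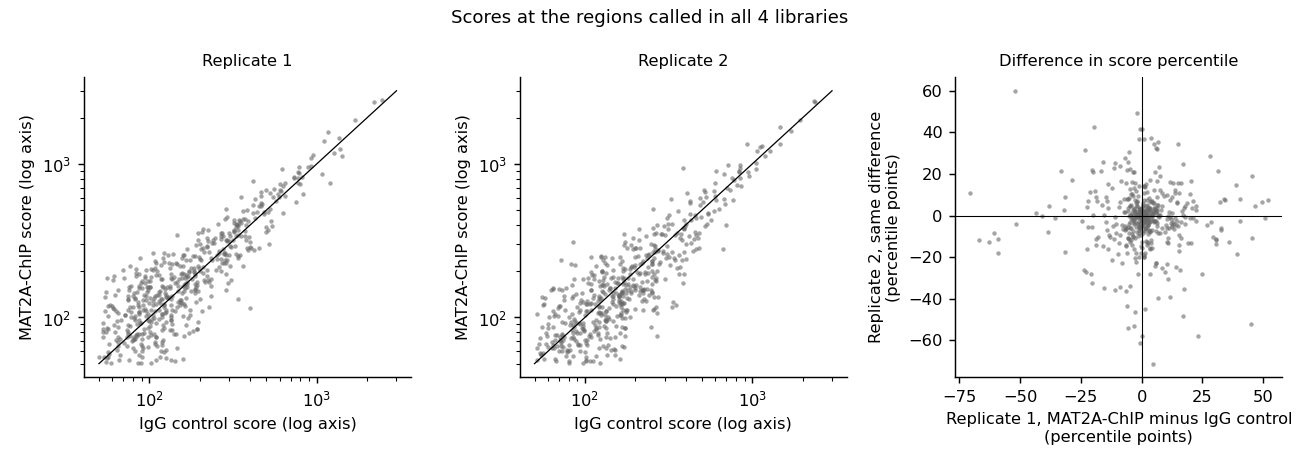
Peak score with MAT2A-ChIP against peak score with the IgG control, both on log axes, at the 524 regions called in all 4 libraries, for replicate 1 (left) and replicate 2 (middle), with the line of equality. On the right, each point is a region, placed by its difference in score percentile in replicate 1 and in replicate 2 (rank correlation 0.0143).

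The 5 regions that stood highest with MAT2A-ChIP in both pools were chosen by that difference, so their values are a description. At chr3:115175362-115175874 the score was 113.5 and 222.9 with MAT2A-ChIP and 61.7 and 83.0 with the IgG control, 28.1 and 28.8 percentile points higher. At chr26:1278-1947, at the very start of its chromosome, it was 186.1 and 154.9 against 93.6 and 77.0, and at chr5:26725369-26726109 it was 150.9 and 134.9 against 76.1 and 84.1. At these 3 regions both MAT2A-ChIP percentiles lay above both control percentiles. At chr28:11366939-11367363 the scores were 55.6 and 105.6 against 50.3 and 65.9, and the percentiles of the antibodies overlapped.

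The remaining region of the 5, chr25:32469522-32469698, scored 111.0 and 76.2 with MAT2A-ChIP and 54.6 and 59.1 with the IgG control, 45.4 and 19.1 percentile points higher. Here too both MAT2A-ChIP percentiles (74.7 and 57.6) lay above both control percentiles (29.3 and 38.5). Unlike the other 4, this region had no overlapping peak in either Input library. The study's annotation lists it beside RN45S and RN18S1, genes of the ribosomal RNA precursor and of the small-subunit RNA. All 4 of its peaks were narrow, between 159 and 177 bp.

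The 5 regions that stood lowest with MAT2A-ChIP in both pools were chosen in the same way. At chr19:11491155-11491715 the score was 65.5 and 59.6 with MAT2A-ChIP against 110.9 and 100.4 with the IgG control, and at chr14:728600-728960 it was 71.5 and 56.3 against 121 and 85.1. At chr6:5595238-5595802 it was 50.7 and 66.3 against 86.0 and 102.4. At these 3 regions both control percentiles lay above both MAT2A-ChIP percentiles. At chr6:63588399-63589034 (75.6 and 53.4 against 161.4 and 66.5) and chr3:8104463-8106176 (77.6 and 52.3 against 144.5 and 67.1) the percentiles overlapped. All 5 were called in both Input libraries.

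Peaks called with 1 antibody only were taken as those that had no overlap with a peak of the other antibody from the same pool, in either replicate, and that overlapped each other between the replicates. In a single pool such peaks were common: 1042 MAT2A-ChIP peaks (59.2%) in replicate 1 and 822 (54.6%) in replicate 2 had no control peak, and 927 (56.4%) and 873 (56.3%) IgG control peaks had no MAT2A-ChIP peak. Requiring both pools left 41 MAT2A-ChIP peaks, 5.95% of the 689 peaks of replicate 1 that overlapped a MAT2A-ChIP peak of replicate 2. The same filter with the antibodies exchanged left 34 IgG control peaks, 4.89% of 695. The excess over the exchanged filter was therefore 7 peaks, and no test applies to the 2 counts. Of the 41 and the 34, 11 and 12 had a score of at least 70 in both pools. When the lists of both antibodies were first limited to peaks of a score of 70 or more, which also takes away control peaks, the counts were 22 and 22, and from a score of 100 they were 14 and 16.

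Both sets were made of weaker peaks than the other replicated ones. The 41 MAT2A-ChIP peaks had a median score of 72.4 in replicate 1 (range 50.1 to 127.0) and 67.0 in replicate 2 (50.8 to 181.6). The other 648 replicated MAT2A-ChIP peaks had a median of 138.7. The 34 IgG control peaks had a median of 68.6 in replicate 1 (50.8 to 146.9) and 74.6 in replicate 2 (51.5 to 185.8), and the other 661 had a median of 121.9. A score of 100 or more in both pools was reached by 2 of the MAT2A-ChIP peaks and by 3 of the IgG control peaks. The order of scores in one pool was only loosely that in the other, with a rank correlation of 0.202 over the 41 peaks and 0.368 over the 34, whereas widths kept their order, with a rank correlation of 0.685 and 0.684.

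**Figure D4:**
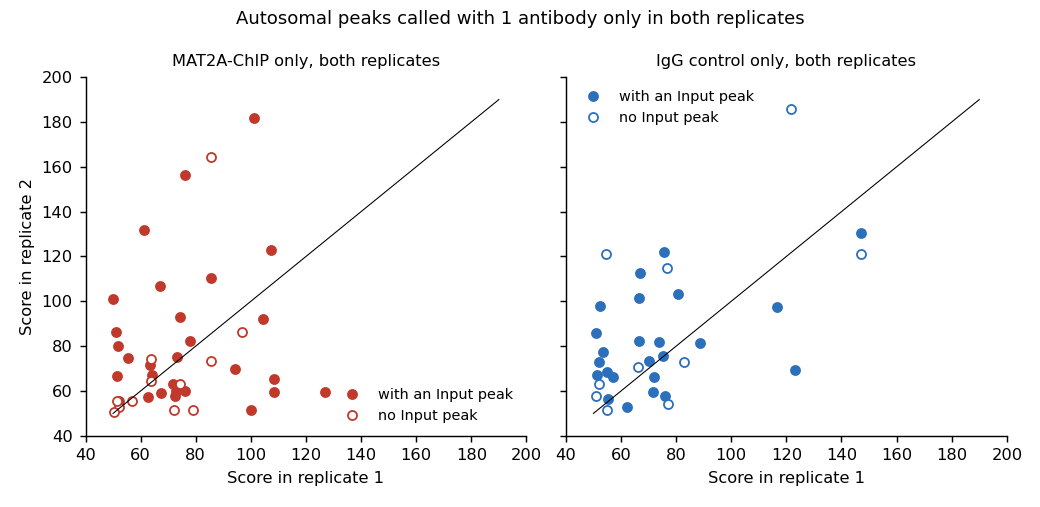
Peak score in replicate 1 against replicate 2 for the 41 autosomal peaks called with MAT2A-ChIP only in both pools (left) and the 34 called with the IgG control only (right), with filled points for peaks that overlapped an Input peak in either pool and the line of equality. Both sets gather at scores under 100, and 12 peaks of the first and 10 of the second have no Input peak.

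Peaks of both sets were mostly present in Input chromatin. An Input peak overlapped 29 of the 41 MAT2A-ChIP peaks (70.7%, 95% Wilson interval 55.5 to 82.4%) and 24 of the 34 IgG control peaks (70.6%, 53.8 to 83.2%). For the other replicated peaks the shares were 98.3% and 98.0%, and for peaks of replicate 1 that were not replicated 20.7% and 17.9%. A peak of the control antibody, from either pool, often lay close by without touching. Within 10 kb there was one for 23 of the 41 MAT2A-ChIP peaks. With the antibodies exchanged it was so for 25 of the 34 IgG control peaks. Within 500 bp the counts were 8 and 9. None of these counts requires a near peak in both pools. The smallest gap of the first set was 52 bp in replicate 2, where replicate 1 had 1528144 bp. The smallest of the second set was 56 bp in replicate 1, where replicate 2 had 73 bp.

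The MAT2A-ChIP peak that stood highest by the lower of its 2 percentiles was chr29:30326468-30326583, with a score of 107.3 in replicate 1 and 123.0 in replicate 2. It had an Input peak in both pools, and the nearest IgG control peak lay 991 bp away. The study's annotation puts it in an intron of KIRREL3, a cell adhesion molecule of the immunoglobulin superfamily. The peak ranked last of the 41, chr29:30306709-30306862, with scores of 50.1 and 100.9, is listed in an intron of the same gene. The next, chr3:95023668-95023932, scored 101.0 and 181.6 and was also called in both Inputs. The nearest control peak to it lay 2106461 bp away in replicate 1 and 20966 bp away in replicate 2. This MAT2A-ChIP peak is listed in an intron of NRDC, a metalloendopeptidase, with the genes of the small GTPase RAB3B and the lipid-binding protein OSBPL9 nearby.

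A pair of the 10 strongest MAT2A-ChIP peaks had no Input peak in either pool. One, chr3:13937382-13937518, scored 85.4 and 164.5 and is listed near LRRC71, a leucine-rich repeat gene, and PEAR1, a receptor of platelets and endothelium. The nearest IgG control peak to it lay 745579 bp away in replicate 1 and 745856 bp away in replicate 2. The other, chr4:28973801-28973929, scored 96.7 and 86.1, with the nearest control peak 943439 bp away in replicate 1 and 12942 bp away in replicate 2. The peak chr15:41033589-41033742, with scores of 85.4 and 110.6, had an Input peak in replicate 2 only. Its nearest control peak lay 990001 bp away in replicate 1 and 2935508 bp away in replicate 2.

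The other 5 of the 10 were called in both Inputs. They were chr7:56586840-56587014 (104.3 and 92.3), chr26:40629785-40629946 (76.2 and 156.3), chr14:682734-683035 (78.0 and 82.3), chr14:994690-994856 (74.4 and 92.9) and chr11:53712-54105 (73.1 and 75.1). For the first and the third of these the nearest IgG control peak of replicate 1 was 358 bp away. In replicate 2 it was 2019 and 421 bp away. For the second it was 5171390 and 163075 bp away in replicates 1 and 2. For the fourth it was 7063 and 7030 bp away and for the fifth 1553 and 1533 bp. Both peaks on chromosome 14 lie in its first megabase, which held 89 and 71 MAT2A-ChIP peaks and 86 and 93 IgG control peaks in all.

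The IgG control only peaks were ranked in the same way. The first, chr4:33576537-33576650, had 121.8 in replicate 1 and 185.8 in replicate 2, with no Input peak in either pool. The nearest MAT2A-ChIP peak to it lay 1301455 bp away in replicate 1 and 1174748 bp away in replicate 2. Next came chr6:6575706-6575881 with 146.9 and 130.5, called in both Inputs and 118 bp from a MAT2A-ChIP peak. After that came chr22:42408069-42408193 with 146.9 and 121.3, with no Input peak. These are the 3 IgG control peaks at 100 or more in both pools. The peak chr17:50898569-50898815, at 76.7 and 114.7, had no Input peak either.

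The other 6 of the 10 IgG control peaks were called in both Inputs. They were chr1:91173639-91173902 (116.6 and 97.5), chr15:85292329-85292677 (80.7 and 103.2), chr17:35643672-35644146 (75.5 and 122.1), chr1:145446324-145446439 (73.8 and 82.0), chr21:1931998-1932305 (88.6 and 81.2) and chr17:50858139-50858465 (75.2 and 75.7). The peak on chromosome 15 lay 110 bp from a MAT2A-ChIP peak of replicate 1 but 5898160 bp from the nearest of replicate 2. The second on chromosome 1 lay 205 and 215 bp from a MAT2A-ChIP peak of replicates 1 and 2.

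The annotation used here lists a gene for 21 of the 41 MAT2A-ChIP peaks, and the 34 IgG control peaks were not placed in genes, so the sets cannot be compared in this. Some genes listed beside other members of the 41 have known roles, and were picked here after the values were seen. DEPTOR, an inhibitor of mTOR signalling, ABCA1, a cholesterol exporter, DYSF, a membrane repair protein, and PPARD, a nuclear receptor for fatty acids, are among them. The scores in replicate 1 and replicate 2 were 64.2 and 67.0 at DEPTOR, 74.4 and 62.9 at ABCA1 and 72.4 and 57.6 at DYSF. At PPARD they were 127.0 and 59.6, and its replicate 1 score was the highest of the 41. Input had a peak in both pools at DEPTOR (212.6 and 180.7) and at DYSF (71.1 and 81.4). At PPARD it had one in replicate 1 only (68.2), and at ABCA1 in neither. The nearest IgG control peak lay 1528144 bp (replicate 1) and 52 bp (replicate 2) from the peak at DEPTOR. At ABCA1 these distances were 358 and 524276 bp, at DYSF 322 and 266 bp and at PPARD 4025 and 6025 bp.

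One peak at genes of the methionine cycle was looked up for its bearing on the enzyme, with its values known. BHMT remethylates homocysteine to methionine and DMGDH breaks down the dimethylglycine that this yields. The peak at their locus, chr10:10105977-10106144, scored 78.5 in MAT2A-ChIP replicate 1 and 67.1 in replicate 2. The IgG control of replicate 1 had a peak at the same place with a score of 88.1, so the peak was not among the 41. The IgG control of replicate 2 and both Inputs had none there. About 1 kb further on, a neighbouring peak was called in all 6 libraries of the series, with scores of 56.6 and 66.2 with MAT2A-ChIP, 66.9 and 90.8 with the IgG control and 96.6 and 129.1 in Input.

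Peaks were spread over the 29 autosomes alike with both antibodies. The rank correlation between the peak counts of the autosomes was 0.970 for MAT2A-ChIP and IgG control of replicate 1 and 0.940 for those of replicate 2, against 0.941 between the MAT2A-ChIP libraries and 0.939 between the IgG controls. Chromosome 14 had 137 and 110 MAT2A-ChIP peaks and 141 and 140 control peaks, and chromosome 1 had 124 and 128 against 122 and 117. Autosomes differ in length and all libraries share the genome, so these values are a description. The difference between the antibodies in the count of an autosome had a rank correlation of 0.0116 between the pools.

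Both MAT2A-ChIP counts lay above both IgG control counts on 6 autosomes (20.7%) and below them on 3 (10.3%), and the counts overlapped on the other 20. The higher ones were chromosome 1, chromosome 11 (56 and 51 against 43 and 45), chromosome 13 (53 and 47 against 42 and 43), chromosome 18 (37 and 35 against 30 and 28), chromosome 27 (68 and 74 against 57 and 58) and chromosome 29 (79 and 76 against 68 and 61). Input had 131 and 109 peaks on chromosome 1, 38 and 33 on chromosome 11 and 44 and 46 on chromosome 13. It had 45 and 33 on chromosome 18, 78 and 74 on chromosome 27 and 90 and 77 on chromosome 29. The lower ones were chromosome 14, chromosome 15 (29 and 28 against 38 and 34) and chromosome 28 (36 and 32 against 38 and 39). On these, Input had 180 and 157 peaks (chromosome 14), 18 and 18 (chromosome 15) and 47 and 42 (chromosome 28). With counts taken as a share of the list, an alternative chosen after the data were seen, 5 of the 6 stayed higher, chromosome 1 did not and chromosome 21 was added (3.01% and 2.92% against 2.86% and 2.19%), and all 3 lower ones stayed lower.

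**Figure D5:**
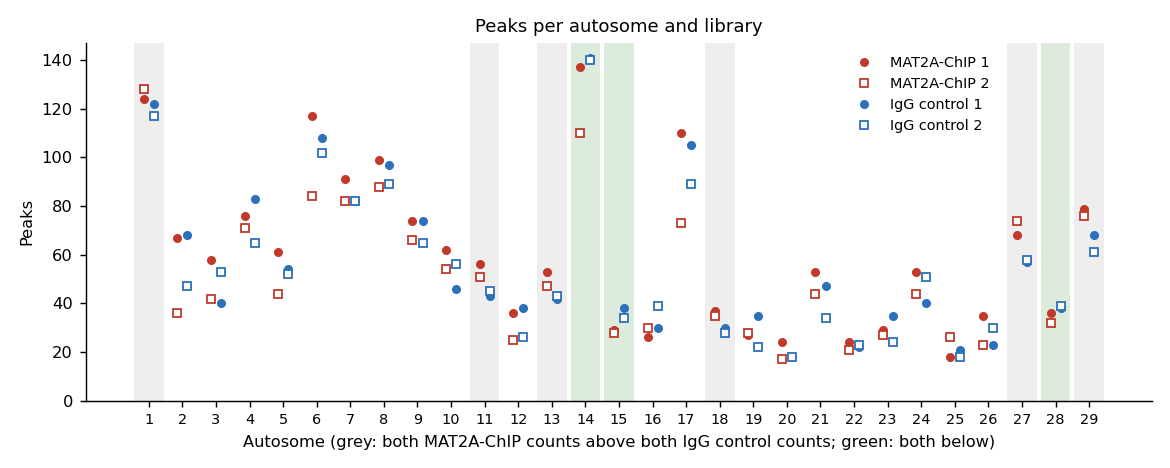
Autosomal peaks per chromosome (vertical axis, number of peaks) in the 4 libraries, with grey bands for the 6 autosomes where both MAT2A-ChIP counts are above both IgG control counts and green bands for the 3 where both are below. Chromosome 14, with 110 to 141 peaks, and chromosome 1, with 117 to 128, hold the most in every library.

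Within chromosomes a minority of the peaks was gathered in a few dense stretches, in every library. In 11 windows of 1 Mb each of the 4 lists had at least 10 peaks, and these windows held 21.5% and 23.0% of the MAT2A-ChIP lists and 21.8% and 22.0% of the IgG control lists. Besides the start of chromosome 14 they included, chosen after the values were seen, the window from 145 Mb of chromosome 1, with 49 and 54 MAT2A-ChIP peaks and 49 and 48 control peaks, and that from 30 Mb of chromosome 29, with 50 and 51 against 47 and 40. The window from 28 Mb of chromosome 27 had 19 and 29 against 14 and 16, and Input had 38 and 36 there. Input had 130 and 112 peaks in the first megabase of chromosome 14. In the windows of chromosomes 1 and 29 it had 73 and 68, and 61 and 58. In the 11 windows lay 11 of the 41 peaks called with MAT2A-ChIP only and 10 of the 34 called with the IgG control only. Both peaks listed in KIRREL3 and the IgG control peak chr1:145446324-145446439 are among them.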

How the data were processed

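ChIP-seq was done on pools of bovine blastocysts with a low-input kit, and single reads were sequenced. Per the labels and the study's methods, the authors removed adapters, aligned reads to bosTau8 with Bowtie 1.1.2 (bcl2fastq is also named in the submitters' processing notes) and ran MACS with default settings to find peaks, with 1 list per library. The sources used here do not say whether a control library was given to MACS, which would change what a score, or a missing partner, means. The authors deposited peak positions and a score, −10 log10 of the peak's p-value. The lists hold no counts or depth, the library read totals that the study gives were not used here, and the score depends on depth. Columns were tested for range: scores start at 50.

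From the deposited lists, autosomal peaks were kept, with overlap of 1 bp or more. The antibody-only filter was the part of the study's filter that uses the IgG control, on autosomes. The study also accepted peaks that were absent from Input though present in the IgG control, and these were not added here. It took peaks of replicate 1 without a same-pool control peak that overlap such a peak of replicate 2. Shared pairs were made one to one by highest score. Paired differences were tested by exact two-sided sign-flip permutation. Replicate numbers pair the libraries because the chromatin of 1 pool was divided between the antibodies. As a check, the rank correlation of score at regions called in all 4 libraries averaged 0.797 within and 0.780 across pools. The single values overlapped, at 0.803 and 0.792 within pools and 0.812 and 0.747 across them. The pool 1 minus pool 2 difference in score percentile had a rank correlation of −0.00756 between the antibodies. The pairing thus rests on the division of the chromatin and not on these values. The code of the filter was run on simulated lists drawn from 1759 positions. Planted peaks lay in both lists of 1 antibody and in none of the other, and all other simulated peaks lay in all 4 lists. The outcome was thus largely set by construction: 200 of 200 planted peaks were recovered, with 0 others. This checks the code only, because peaks missed in single libraries were not simulated. Overlaps equalled those of bedtools 2.31.1. Python 3.11.15, numpy 2.4.6, scipy 1.17.1 and matplotlib 3.10.9 were used.

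Named peaks were the 10 of each antibody-only set with the highest lower percentile, the 5 regions called in all 4 libraries with the highest mean percentile, the 5 most shifted in each direction, and autosomes with the highest or with non-overlapping counts. Others are said to be chosen after their values were seen. Members and lists were chosen with earlier results of these data known. Alternatives were a minimum score, overlap of 50%, a 500 bp gap, lists of equal length, the X chromosome, the first megabase, crossed pools and single replicates. Gene names are those of the study's annotation. No sequence was read, as no genome of this build was used here.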

Additional observations from a re-analysis of the deposited data

Results flagged for a closer look

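The X chromosome was outside the comparison, with 335 and 282 peaks in the MAT2A-ChIP lists and 290 and 328 in the IgG control lists. On it, 18 peaks were called with MAT2A-ChIP only in both replicates, beside 15 with the IgG control only under the exchanged filter, and the 2 counts were not tested against each other.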

How the results depend on the processing

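A peak missing from a list can be a peak just under the score of 50, and most peaks called in 1 library only were weak. Of 75 alternative values, 50 stayed within a limit and 25 moved. Single replicates are not among the 75 and are given below. The 50 include the differences in number, width and percent under 70 without the replicate block, which equal the main values by construction. The limit was 1.5 times the main value for a count, 1 SD between replicates for a share or correlation, and the same direction for a paired difference, so it was wide for counts (59 and 49 peaks with the X chromosome, 33 and 24 with a 500 bp gap) and narrow for shares. With a minimum score of 70 the peaks called with MAT2A-ChIP only and with the IgG control only were 22 and 22, the shared shares 73.7% of MAT2A-ChIP and 74.6% of IgG control peaks, and the rank correlation for width 0.878. With a minimum of 100 they were 14 and 16, 74.2% and 76.2%, with a rank correlation of 0.789 for score and 0.890 for width. The share of IgG control peaks (mean 43.7%) was 45.8% with lists of equal length, 45.6% with the X chromosome, 41.5% without the first megabase, 43.4% with 50% of the shorter peak covered and 43.3% with the pools crossed. With 50% of both peaks covered the shares were 39.5% and 40.2% and the rank correlation for width 0.904. The rank correlation for score (mean 0.773) was 0.738 with the X chromosome and 0.761 with the pools crossed. The rank correlation for width (mean 0.853) was 0.843 with the X chromosome, 0.855 without the first megabase, 0.846 with the pools crossed and 0.866 for peaks with 1 partner. The cause of these moves was not tested. With single replicates, MAT2A-ChIP only peaks ranged from 822 to 1042 and IgG control only peaks from 873 to 927, the difference in number from −44 to 114 and that in the percent of peaks under 70 from −0.957 to 1.12, so both turned direction. Without the replicate block the only-peak counts were again 41 and 34, and the exact permutation p of the differences in number, width and percent under 70 were 1, 0.333 and 1. No call was possible with or without the block, so these p-values say nothing about stability.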
